A study of Arabis alpina with 9 samples.

Results

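The genes described here are 19 *Arabis alpina* genes whose reads were highest in the *pep2-1* mutant and whose Arabidopsis ortholog cell is empty in the deposited gene table. They were chosen by measured values. A gene was taken if its mean in *pep2-1* was at least 1 CPM (reads of the gene scaled by the reads in all genes of that library) and if its lowest *pep2-1* library had at least 1.5 times the CPM of the highest of the 6 other libraries. This ratio is called the gain below. Of the 30690 genes in the table, 11146 have an empty ortholog cell and 4616 of these reached a mean of 1 CPM in *pep2-1*, so that the 19 genes make up 0.412% of them. By the same rule 42 of 16135 genes with an ortholog in the table (0.26%) were taken, and the mirrored rule for low reads in *pep2-1* took 77 genes with an empty cell.

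The libraries were made from polyadenylated RNA of dissected shoot apices of plants grown for 3 weeks in long days. There were 3 libraries each of the *pep2-1* mutant, the *pep1-1* mutant and the wild type, the accession Pajares. Both mutants came from EMS mutagenesis, a chemical treatment that leaves many point mutations, in the Pajares background. The *pep2-1* plants were homozygotes picked with a marker from a segregating population, and each mutant is represented by a single allele. *PEP2* is the *A. alpina* ortholog of the Arabidopsis floral repressor *APETALA2*, and *pep1-1* carries a lesion in the ortholog of *FLOWERING LOCUS C*. The columns name the replicates of each genotype A, B and C, and these letters are used below. The study calls the libraries biological replicates, and the p-values below measure the spread between these libraries only.

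An empty ortholog cell did not mean that a gene lacks an Arabidopsis counterpart. In the gene lists published with the study, 13 of the 19 genes have an Arabidopsis ortholog, 4 are listed with none and 2 are not listed. Of the 920 genes in those lists, 600 have an ortholog in the table, and the lists gave the same ortholog for all 600. Of the other 320, with an empty cell, 230 have an Arabidopsis ortholog in the lists. For 12 of the 13 genes the ortholog stands in the table beside another *A. alpina* gene. Genes that share an ortholog are called copies here, and whether each is a whole gene or a fragment was not tested. The 19 are therefore called genes with an empty ortholog cell here, and none of them has a description in the table.

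Several of the 13 orthologs belong to the chemistry of glucosinolates, the sulfur-containing defence compounds of the cabbage family. In Arabidopsis, methylthioalkylmalate synthases (MAM1 and MAM3) lengthen the side chain of methionine before it enters the pathway. The cytochrome P450 CYP83A1 then oxidises the aldoximes made from the lengthened amino acids, glutathione supplies the sulfur, and the C-S lyase SUR1 cleaves the resulting conjugate. SUR1 itself is not among the 13 orthologs. The other orthologs include an aminotransferase, a peptide transporter, hydrolases, a cupin, a member of the aldolase superfamily and proteins of less known role.

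Over the 19 genes the gain lay between 1.51 and 3.69, with a median of 1.61, and it reached 2 in 4 genes. The mean CPM of *pep2-1* was 2.29 to 18.5 times that of *pep1-1* (median 3.83) and 2.1 to 20.6 times that of the wild type (median 2.69). Most of these genes had few reads. The mean in *pep2-1* lay between 1.20 and 343 CPM with a median of 5.44, 8 genes had at least 10 CPM and 9 had under 5. On a scale per transcript length, the authors' FPKM value of *pep2-1* (fragments per kilobase of exon model, scaled by mapped reads) lay between 0.433 and 261, and the median gene stood at percentile 39.5 of the 25725 genes above 0 FPKM in *pep2-1*. The percentiles ran from 13.9 to 97.9, so that genes of low and of high level were both among them. The coefficient of variation over the 3 libraries had a median of 15.8% in *pep2-1*, 39.6% in *pep1-1* and 30.8% in the wild type.

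**Figure D1:**
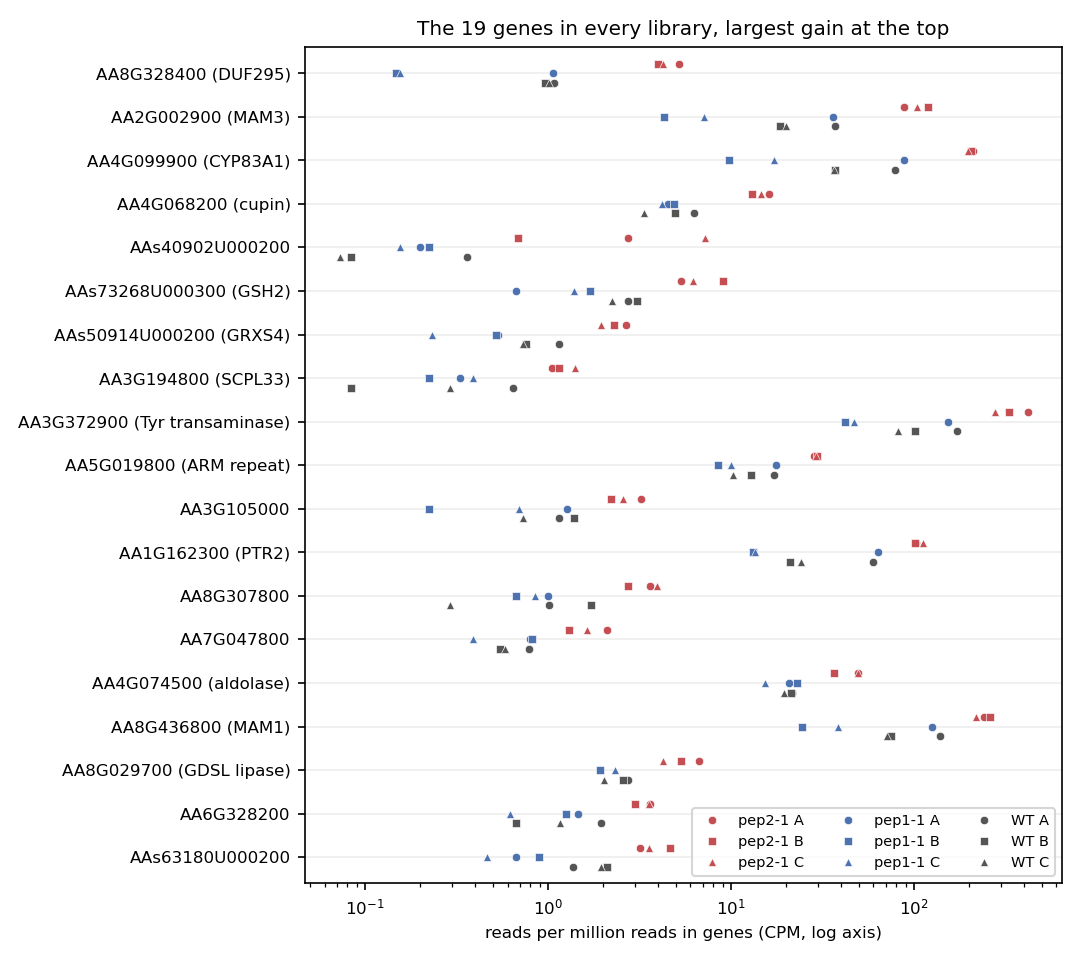
CPM (log axis) of the 19 genes in each of the 9 libraries, ordered by gain, with genotypes by colour and replicates A, B and C by symbol. Every *pep2-1* point lies right of the *pep1-1* and WT points of its gene, as the rule requires, and in *pep1-1* replicate A (circle) lies far right of B and C for genes such as *MAM3* and *CYP83A1*.

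Among the genes of glucosinolate chemistry, AALP_AA2G002900, the ortholog of *MAM3* (AT5G23020; chromosome 2, 286207 to 289719), had 88.4, 119 and 104 CPM in *pep2-1* replicates A, B and C, 36, 4.29 and 7.12 CPM in *pep1-1*, and 36.8, 18.5 and 20.1 CPM in the wild type. Its gain was 2.41, and its mean in *pep2-1* was 6.56 times that of *pep1-1* and 4.13 times that of the wild type. The highest libraries outside *pep2-1* were replicates A of *pep1-1* and of the wild type, which were nearly level. AALP_AA4G099900, an ortholog of *CYP83A1* (AT4G13770; chromosome 4, 9424951 to 9427499), had 211, 204 and 197 CPM in *pep2-1*, 87.8, 9.77 and 17.3 CPM in *pep1-1*, and 78.3, 37.0 and 36.3 CPM in the wild type. The *pep2-1* libraries of this gene were close together (204 ± 7.09 CPM, SD, n = 3), while those of *pep1-1* were not (38.3 ± 43.1 CPM). Its gain was 2.24.

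AALP_AA8G436800, an ortholog of *MAM1* (AT5G23010; chromosome 8, 36353283 to 36356108), had 240.5, 260.3 and 219 CPM in *pep2-1*, 125, 24.4 and 38.3 CPM in *pep1-1*, and 138, 74.5 and 71.4 CPM in the wild type, with a gain of 1.58. Replicates A of *pep1-1* and the wild type again lay above B and C. AALP_AA3G372900 is listed as an ortholog of AT5G36160, an aminotransferase that in Arabidopsis acts on tyrosine, and lies on chromosome 3 at 27769927 to 27772161, with the gene of *SUR1* (AALP_AA3G373000) as its neighbour 3233 bp away. It had 418, 332 and 278 CPM in *pep2-1*, 154, 41.8 and 46.7 CPM in *pep1-1*, and 171, 101 and 81.3 CPM in the wild type, with a gain of 1.62. Per length it was the highest of the 19 genes, with an authors' value of 261 FPKM in *pep2-1*, and *MAM1* came next with 161 FPKM.

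A pair of genes on unplaced sequences are listed with orthologs of glutathione synthesis and of the thioredoxin superfamily. AALP_AAs73268U000300, listed with the ortholog *GSH2* (AT5G27380), which makes glutathione in its last step, had 5.33, 9.09 and 6.22 CPM in *pep2-1*, 0.664, 1.70 and 1.39 CPM in *pep1-1*, and 2.73, 3.06 and 2.25 CPM in the wild type. Its gain was 1.74, and the libraries of *pep1-1* lay below those of the wild type without overlap. AALP_AAs50914U000200, listed with AT4G15680 of the thioredoxin superfamily, had 2.67, 2.29 and 1.94 CPM in *pep2-1*, 0.531, 0.518 and 0.232 CPM in *pep1-1*, and 1.15, 0.755 and 0.725 CPM in the wild type, a gain of 1.69. These were low levels, of 25 to 43 reads per library in *pep2-1*.

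The transporter and the hydrolases differed in how their replicates were spread. AALP_AA1G162300, an ortholog of the peptide transporter *PTR2* (AT2G02040; chromosome 1, 10097777 to 10099974), had 103, 102 and 112 CPM in *pep2-1*, 63.7, 13.3 and 13.5 CPM in *pep1-1*, and 59.6, 21.1 and 24 CPM in the wild type. Its gain of 1.60 was set by replicate A of *pep1-1*. AALP_AA3G194800, an ortholog of the serine carboxypeptidase-like gene *SCPL33* (AT3G17180), spans 322 bp of chromosome 3 (11335318 to 11335639) and had 1.05, 1.15 and 1.40 CPM in *pep2-1*, 0.332, 0.222 and 0.387 CPM in *pep1-1*, and 0.646, 0.0839 and 0.290 CPM in the wild type. AALP_AA8G029700, an ortholog of a GDSL lipase (AT5G03610; chromosome 8, 1821055 to 1826763), had 6.70, 5.35 and 4.27 CPM in *pep2-1*, 1.93, 1.92 and 2.32 CPM in *pep1-1*, and 2.73, 2.56 and 2.03 CPM in the wild type. In this gene the *pep1-1* and wild-type libraries overlapped and replicate A did not stand out in either.

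AALP_AA4G068200, an ortholog of a cupin of the RmlC-like superfamily (AT5G38940; chromosome 4, 6034392 to 6035431), had 16.1, 13.1 and 14.5 CPM in *pep2-1*, 4.51, 4.89 and 4.18 CPM in *pep1-1*, and 6.25, 4.95 and 3.33 CPM in the wild type. Its gain was 2.09, with a spread of 30.1% of the mean (coefficient of variation) in the wild type and less in both mutants. AALP_AA4G074500, of the aldolase superfamily (AT1G44318), lies 0.588 Mb further along chromosome 4 (6623249 to 6626219), and they are the closest pair among the 19 genes. It had 49.6, 36.4 and 49.2 CPM in *pep2-1*, 20.8, 23 and 15.2 CPM in *pep1-1*, and 21.5, 21.3 and 19.4 CPM in the wild type. In both genes *pep1-1* and the wild type overlapped. AALP_AA5G019800, an ARM repeat gene (AT4G30990; chromosome 5, 1133877 to 1145104), averaged 28.9 ± 0.641 CPM in *pep2-1*, 12.0 ± 4.90 CPM in *pep1-1* and 13.5 ± 3.47 CPM in the wild type (SD, n = 3 each).

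The largest gain, 3.69, belonged to AALP_AA8G328400, a gene of unknown function with a DUF295 domain (ortholog AT5G54550; chromosome 8, 28603971 to 28609861). It had 5.21, 3.97 and 4.27 CPM in *pep2-1*, 1.06, 0.148 and 0.155 CPM in *pep1-1*, and 1.08, 0.965 and 1.01 CPM in the wild type. The values below 0.2 CPM in *pep1-1* rest on 2 reads each. Its copy AALP_AA2G225100 on chromosome 2, which holds AT5G54550 in its ortholog cell, moved the other way. The copy had 1.30, 0.688 and 1.01 CPM in *pep2-1*, 9.29, 8.29 and 8.05 CPM in *pep1-1*, and 8.83, 9.48 and 9.86 CPM in the wild type, and *pep2-1* over the wild type gave it a log2 fold change of -3.16 (standard error 0.196, called by edgeR). In *pep2-1* the member was thus above its copy, and in the other 6 libraries below it. The sum of both genes was 6.51, 4.66 and 5.28 CPM in *pep2-1*, 10.4, 8.44 and 8.20 CPM in *pep1-1*, and 9.91, 10.4 and 10.9 CPM in the wild type. The sum was thus lower in each *pep2-1* library than in the other 6. Whether reads were shared between both genes was not tested.

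The 4 genes listed without an Arabidopsis ortholog and the 2 that are not listed were low. AALP_AAs40902U000200, listed with none, had 2.73, 0.688 and 7.22 CPM in *pep2-1*, 0.199, 0.222 and 0.155 CPM in *pep1-1*, and 0.359, 0.0839 and 0.0725 CPM in the wild type. Its mean in *pep2-1* was 20.6 times that of the wild type, the largest such ratio of the 19 genes. That ratio rests on 44, 9 and 93 reads in *pep2-1* and on 5, 2 and 1 reads in the wild type, and its coefficient of variation in *pep2-1* was 94.3%. AALP_AAs63180U000200, also listed with none, had 3.16, 4.66 and 3.57 CPM in *pep2-1*, 0.664, 0.888 and 0.464 CPM in *pep1-1*, and 1.36, 2.1 and 1.96 CPM in the wild type. Here the 3 genotypes were separate, with *pep1-1* lowest. AALP_AA6G328200 (chromosome 6, 33649920 to 33656117), which is not listed, had 3.60, 2.98 and 3.57 CPM in *pep2-1*, 1.46, 1.26 and 0.619 CPM in *pep1-1*, and 1.94, 0.671 and 1.16 CPM in the wild type. AALP_AA3G105000, AALP_AA8G307800 and AALP_AA7G047800 had gains of 1.59 to 1.60 and means in *pep2-1* of 2.67, 3.44 and 1.68 CPM.

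Nothing marked the threshold itself. Just inside it stood AALP_AA8G029700, AALP_AA6G328200 and AALP_AAs63180U000200, with gains of 1.57, 1.54 and 1.51. Just outside it stood AALP_AA8G028000 (gain 1.47), AALP_AAs65349U000100 (1.45) and AALP_AA8G436700 (1.45). AALP_AA8G028000 had 9.24, 11.4 and 9.17 CPM in *pep2-1*, 5.31, 3.26 and 2.01 CPM in *pep1-1*, and 6.25, 3.94 and 5.15 CPM in the wild type. AALP_AAs65349U000100 had 11.1, 10.2 and 9.24 CPM in *pep2-1*, 5.24, 2.52 and 2.24 CPM in *pep1-1*, and 6.39, 3.90 and 5.51 CPM in the wild type. The third, AALP_AA8G436700, is another copy of *MAM1* and the neighbour of the *MAM1* member, 3424 bp away. It had 131, 136 and 117 CPM in *pep2-1*, 57.0, 10.5 and 23.1 CPM in *pep1-1*, and 80.8, 42.1 and 41.3 CPM in the wild type, a pattern much like that of its neighbour.

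Replicate A carried much of the spread outside *pep2-1*. It was the highest library of both *pep1-1* and the wild type in 9 of the 19 genes (47.4%), against 11.9% of the other genes with an empty cell and 17.8% of all genes at a mean of at least 1 CPM in *pep2-1*. In 13 genes a replicate A set the highest value outside *pep2-1*. In 6 genes, AALP_AA8G328400 and those of *MAM3*, *CYP83A1*, *MAM1*, *PTR2* and the aminotransferase, replicate A of *pep1-1* was 3.49 to 7.01 times the mean of B and C. In the same 6 genes replicate A was 0.794 to 1.37 times the mean of B and C in *pep2-1* and 1.09 to 2.65 times in the wild type. In the first principal component of all tested genes (44.4% of the variance), replicate A also lay lowest within each genotype. The letters are column names and no source used here says what the A libraries share, so the part of replicate A in these values was not tested.

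Within each letter, the ratio of *pep2-1* to the higher of *pep1-1* and the wild type cannot fall below 1.5, since the rule fixes this for every pair of libraries. It lay between 1.61 and 7.6 in replicates A (median 2.40), between 1.59 and 6.44 in replicates B (median 2.97) and between 1.83 and 46.7 in replicates C (median 3.42). The ratio was lowest in replicates A for 11 genes. Leaving out libraries can only keep or raise the gain of a member, and without the 3 A libraries it was 1.59 to 5.31, with a median of 2.57, with 5.31 for *CYP83A1* and 5.18 for *MAM3*.

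**Figure D2:**
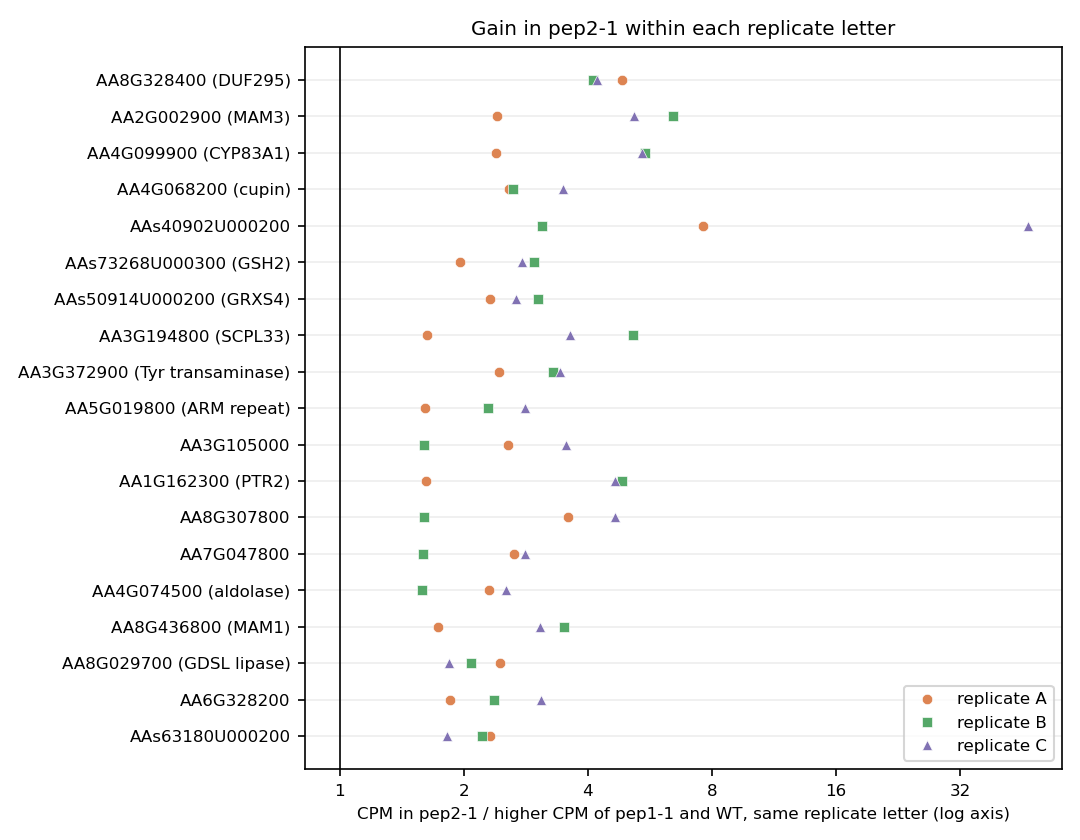
Ratio of CPM in *pep2-1* to the higher CPM of *pep1-1* and WT within the same replicate letter (log axis), for the 19 genes in order of gain, with 1 point per letter. All points lie right of 1.5, as the rule requires, and for *MAM3*, *CYP83A1*, *PTR2* and *MAM1* replicate A lies left of B and C.

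In the edgeR quasi-likelihood test 18 of the 19 genes passed the filter on low counts, and AALP_AAs40902U000200 did not. A call needed an adjusted p up to 0.05 together with a log2 fold change no smaller than 1. By this measure 9 of the 18 were called higher in *pep2-1* than in *pep1-1*, where 0.686% of all 21713 tested genes were. In *pep2-1* over the wild type 6 of the 18 were called higher, where 0.175% of all tested genes were. The rule used both contrasts, so these counts describe the genes and nothing is read from them. The 6 genes were AALP_AA8G328400, AALP_AA4G068200, AALP_AA4G074500, AALP_AA8G029700, AALP_AAs50914U000200 and AALP_AAs73268U000300, and they were also among the 9. Over the wild type, the log2 fold changes of the 18 genes lay between 1.09 and 2.18. The genes with the most reads, those of *MAM1*, *MAM3*, *CYP83A1*, *PTR2* and the aminotransferase, were called in neither contrast by this model. All of these were called in both contrasts when the replicate letter was added to the model, and also without the A libraries. With the letter added, 0.88% of all tested genes were called higher over the wild type and 1.97% over *pep1-1*. The cupin gene AALP_AA4G068200 was the only member called in both contrasts whichever single library was left out. Without the A libraries, a choice made after seeing the data, 14 and 15 of the tested genes were called over the wild type and over *pep1-1*, where 1.47% and 2.24% of all tested genes were.

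The rule put the same upper limit on the libraries of *pep1-1* and of the wild type and did not set them against each other, but their values were part of the choice, and the highest of them was a wild-type library in 14 genes and a *pep1-1* library in 5. None of the 18 genes was called in *pep1-1* over the wild type, where 0.161% of all tested genes were called in either direction by edgeR. At an unadjusted p under 0.05 there were 3 genes by edgeR (6.36% of all tested genes), 3 by DESeq2 and 4 by limma-voom, and DESeq2 and limma-voom also called 0. The log2 fold change was below 0 in 16 of the 18 genes, with a median of -0.34 and a range of -1.40 to 0.12, against a median of 0.00 over all tested genes. The lowest was that of AALP_AAs63180U000200 (-1.40, standard error 0.305, adjusted p = 0.206 from edgeR), followed by AALP_AAs73268U000300 (-1.1, adjusted p = 0.517), the DUF295 gene AALP_AA8G328400 (-1.05, adjusted p = 0.863) and AALP_AAs50914U000200 (-0.97, adjusted p = 0.722).

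Without the A libraries, 4 genes were called in *pep1-1* over the wild type, all of them lower, where 0.276% of all tested genes were called in either direction. These were the *MAM3* gene AALP_AA2G002900 (log2 fold change -1.72, adjusted p = 0.00696 from edgeR), the *CYP83A1* gene AALP_AA4G099900 (-1.41, adjusted p = 0.0191), the *MAM1* gene AALP_AA8G436800 (-1.18, adjusted p = 0.0305) and the aminotransferase gene AALP_AA3G372900 (-1.01, adjusted p = 0.0131). This choice was made after seeing the data and leaves 2 libraries per genotype. Leaving out any single library gave no call, and leaving out 2 of the A libraries was not tried.

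Copies that share an ortholog with a member give a further view of the same families. For the 13 genes with an ortholog, 21 such copies were found in the table and the lists, and 16 of them were tested. In *pep2-1* over the wild type 0 of the 16 were called higher and 1 lower, the DUF295 gene above, where 0.175% of all tested genes were called higher and 0.659% lower. In *pep2-1* over *pep1-1* 2 were called higher, the *CYP83A1* copy AALP_AA4G203400 and the *GSH2* copy AALP_AAs73268U000200, and the DUF295 gene was called lower, where 0.686% of all tested genes were called higher and 0.649% lower. The lists name changed genes only, so that copies with an empty cell that did not change are missing from this count. Reads that fit more than 1 near-identical copy may have been shared between them, so the level of any single copy is uncertain.

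The *CYP83A1* family had 4 copies with reads. The neighbour of the member, AALP_AA4G100000, averaged 357 ± 24.1 CPM in *pep2-1*, 90.6 ± 82.3 CPM in *pep1-1* and 117 ± 50.6 CPM in the wild type (SD, n = 3 each). AALP_AA4G202900 averaged 245 CPM in *pep2-1*, 75.3 CPM in *pep1-1* and 110 CPM in the wild type, and AALP_AA4G203400 averaged 160.0 CPM in *pep2-1*, 60.2 CPM in *pep1-1* and 88.8 CPM in the wild type. All 4 copies thus had their highest mean in *pep2-1* and their lowest in *pep1-1*. Of the *MAM1* copies besides the member, AALP_AA8G407500 averaged 157 CPM in *pep2-1*, 40.3 CPM in *pep1-1* and 46.3 CPM in the wild type. AALP_AA8G407600 averaged 87.8 CPM in *pep2-1*, 32 CPM in *pep1-1* and 34.7 CPM in the wild type, and AALP_AA8G436600, the only *MAM1* copy with the ortholog in its cell, had at most 0.622 CPM in any library. The other copy of *MAM3*, AALP_AA8G407800, averaged 144 CPM in *pep2-1*, 53.6 CPM in *pep1-1* and 67.4 CPM in the wild type, and its replicate A of *pep1-1* nearly reached that of *pep2-1* (105 CPM in *pep2-1* and 102 CPM in *pep1-1*).

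The families of *SCPL33*, *GSH2*, *PTR2* and the GDSL lipase, picked after their values were seen, each have a copy with the ortholog in its cell. The *SCPL33* copy AALP_AA3G195000, beside its member, had 18.2, 11.9 and 13.5 CPM in *pep2-1*, 8.36, 7.63 and 6.73 CPM in *pep1-1*, and 10.3, 5.83 and 4.42 CPM in the wild type, so that *pep2-1* lay above the other libraries as in the member. The *GSH2* gene of chromosome 8, AALP_AA8G253600, had 126, 125 and 119 CPM in *pep2-1*, 105, 97.6 and 93.3 CPM in *pep1-1*, and 112, 98.2 and 98.9 CPM in the wild type. Over the wild type it had a log2 fold change of 0.30 in *pep2-1* (adjusted p = 0.152 from edgeR), and its *pep2-1* libraries too were above the other 6. The *PTR2* copy AALP_AA5G011300 averaged 51.4 CPM in *pep2-1*, 48.5 CPM in *pep1-1* and 45.6 CPM in the wild type. The GDSL lipase copy AALP_AA8G030000, 12121 bp from its member, averaged 118 CPM in *pep2-1*, 132 CPM in *pep1-1* and 126 CPM in the wild type. Neither the *PTR2* copy nor the lipase copy was called in any contrast, and in both the libraries of the 3 genotypes overlapped.

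**Figure D3:**
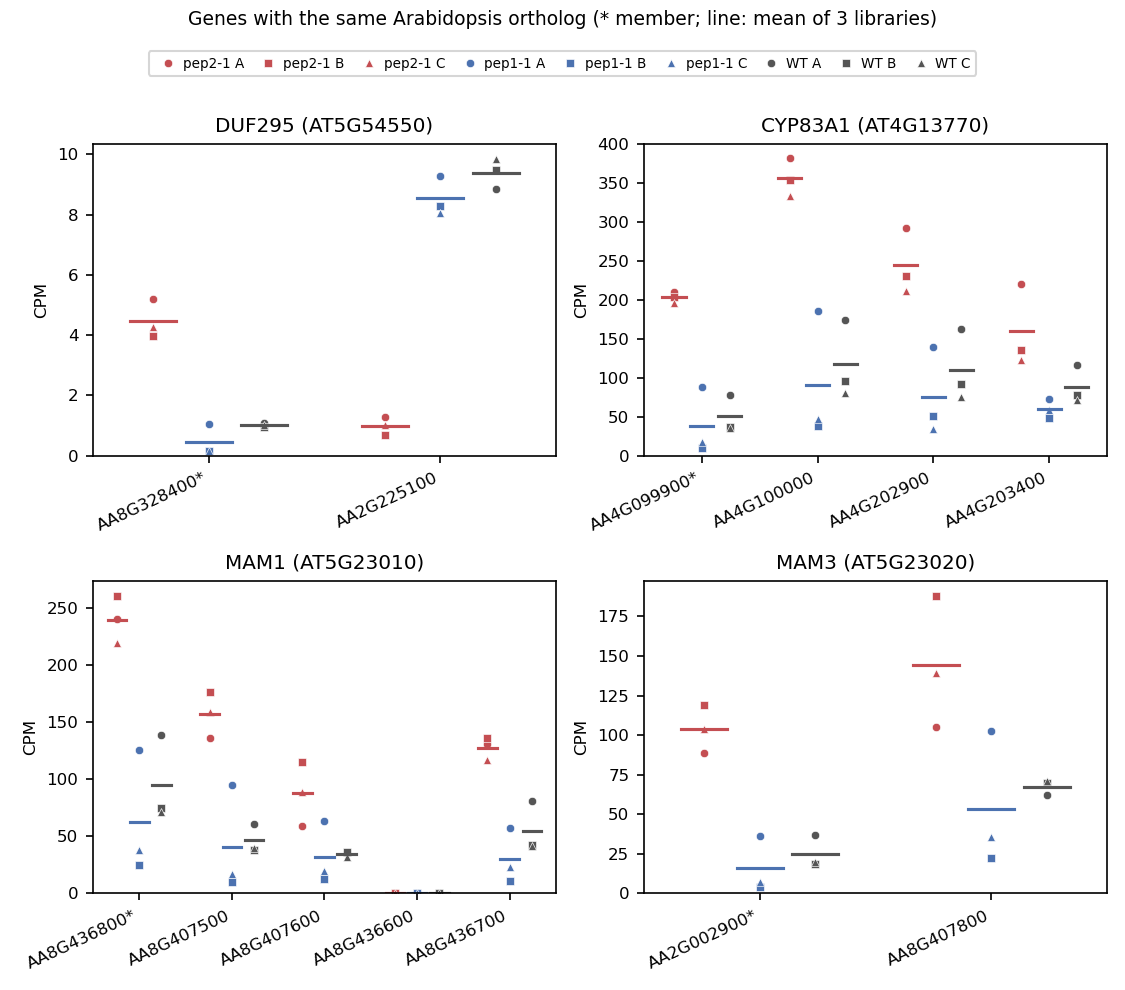
CPM in each library (points) and mean of 3 libraries (lines) for the members marked with an asterisk and the genes that share their Arabidopsis ortholog, in 4 panels for DUF295, *CYP83A1*, *MAM1* and *MAM3*, with *pep2-1* left of *pep1-1* and WT. The DUF295 member and its copy are opposite in *pep2-1*, while the *CYP83A1* and *MAM1* copies with over 30 CPM in *pep2-1* have their highest mean there.

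Of the members placed on chromosomes, most lay on chromosomes 3, 4 and 8. Chromosomes 3 and 4 held 3 each and chromosome 8 held 4, chromosomes 1, 2, 5, 6 and 7 held 1 each, and 4 lay on unplaced sequences. Relative to the genes with an empty cell and a mean of at least 1 CPM in *pep2-1*, these were 0.917% on chromosome 4, 0.655% on chromosome 3, 0.641% on chromosome 8, 0.357% on unplaced sequences and 0.191% to 0.272% on the other chromosomes. No placed member lay within 100 kb of another, and the distances of the unplaced ones are not known. The only placed member on the chromosome of *PEP2* (AALP_AA7G245300; chromosome 7, 26841956 to 26844520) was AALP_AA7G047800, 22.8 Mb away. *PEP2* itself had 70.8, 79.8 and 83.6 CPM in *pep2-1*, 60.3, 55.6 and 49.2 CPM in *pep1-1*, and 66.6, 56.2 and 59.8 CPM in the wild type. All *pep2-1* libraries of *PEP2* lay above the other 6, and its mean was 1.28 times that of the wild type and 1.42 times that of *pep1-1*. Counts of reads do not show the lesion itself, and no cause of the higher level was tested. The locus length of the members had a median of 2235 bp, against 1668 bp for all genes with an empty cell and a mean of at least 1 CPM in *pep2-1*.

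The genes beside the members were mostly level between genotypes. A tested neighbour was found on both sides for 16 members and on neither for 1, which gave 34 neighbours at a median distance of 6028.5 bp. In *pep2-1* over the wild type 0 of the 34 were called by edgeR, where 0.834% of all tested genes were, 8 had an unadjusted p under 0.05 (15.3% of all tested genes), and DESeq2 and limma-voom called 1 each, the *SCPL33* copy AALP_AA3G195000. In *pep2-1* over *pep1-1* 2 of the 34 were called, both higher, where 1.34% of all tested genes were. These were AALP_AAs73268U000200 (log2 fold change 3.41, standard error 0.407), the *GSH2* copy that ends 73 bp before its member, and AALP_AA8G308000 (1.1, standard error 0.160), 6973 bp from AALP_AA8G307800. AALP_AAs73268U000200 averaged 2.37 CPM in *pep2-1*, 0.223 CPM in *pep1-1* and 1.39 CPM in the wild type. AALP_AA8G308000 averaged 12.4 CPM in *pep2-1*, 5.88 CPM in *pep1-1* and 8.93 CPM in the wild type. The median log2 fold change of the 34 neighbours was 0.10 over the wild type. The largest, 1.64 and 1.26, were those of the *CYP83A1* and *MAM1* copies beside their members.

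**Figure D4:**
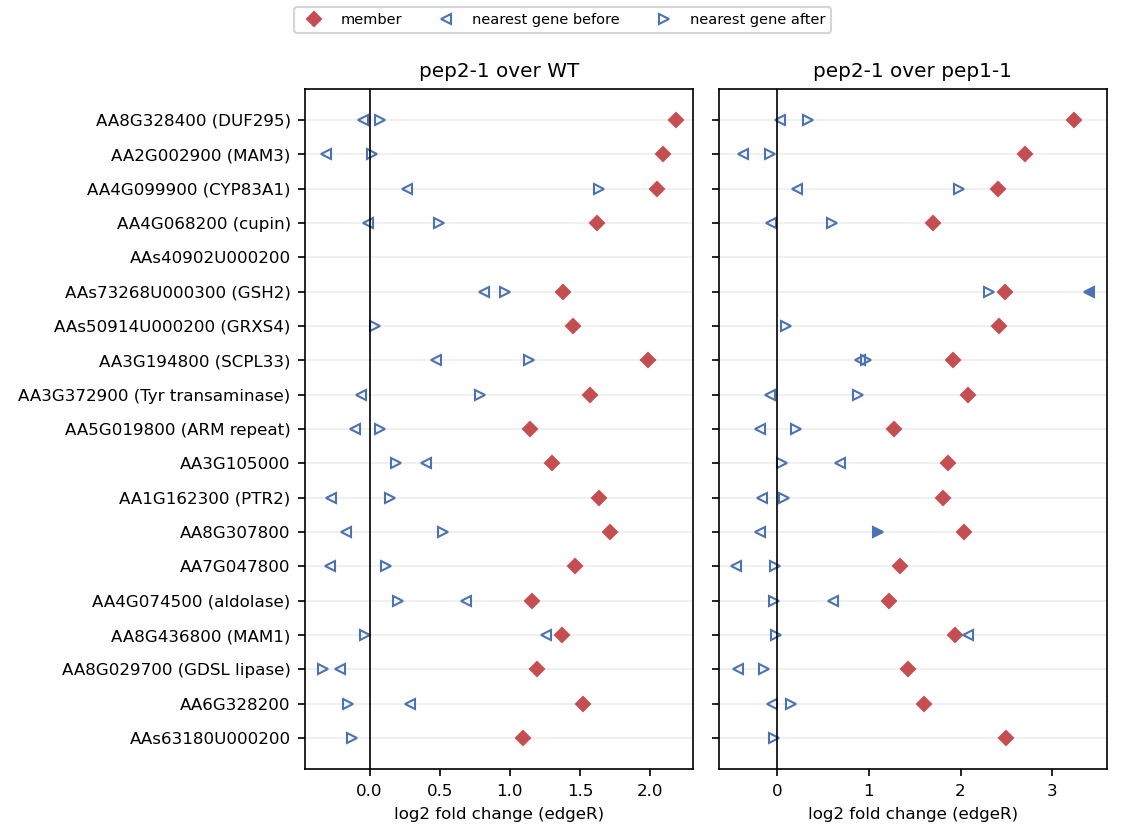
Log2 fold change from edgeR of each tested member (diamonds) and of the nearest tested gene on either side (triangles, filled where called) in *pep2-1* over WT and in *pep2-1* over *pep1-1*. Most neighbours lie near 0. Those that share the ortholog of their member (*CYP83A1*, *MAM1*, *SCPL33* and *GSH2*) lie further right, but so do some others. AALP_AAs73268U000400, for which no shared ortholog was found, lies at 0.967 over WT, right of the *GSH2* copy. Over *pep1-1* it lies at 2.31, right of the *CYP83A1*, *MAM1* and *SCPL33* copies, and AALP_AA8G308000 also lies right of the *SCPL33* copy there.

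The glucosinolate genes of the table show where the 3 members of this pathway stood. A list of 17 Arabidopsis genes of methionine chain elongation and of the core structure of aliphatic glucosinolates, written after the members were known, matched 26 *A. alpina* genes, of which 11 have an empty cell. These 11 could be matched only through the study's lists, which name changed genes, so that a change was a condition for finding them. Of the 22 tested genes that are not members, 20 had a positive log2 fold change over the wild type in *pep2-1*, with a median of 1.30 and 0 called, where 0.175% of all tested genes were called higher. Over *pep1-1* it was 21 of the 22, with a median of 1.44 and 2 called higher, where 0.686% of all tested genes were. These were the *CYP83A1* copy named above and AALP_AA4G094900 (IPMI LSU1, the large subunit of the isomerase of chain elongation). Among the 14 tested non-members with the ortholog in their cell, 13 were positive over the wild type, with a median of 1.36 and 0 called. Over *pep1-1* all 14 were positive, with a median of 1.42 and 1 called higher, AALP_AA4G094900. The median over all tested genes was 0.00 in *pep2-1* over the wild type and -0.01 over *pep1-1*. The 3 members had 2.09 (*MAM3*), 2.05 (*CYP83A1*) and 1.37 (*MAM1*) over the wild type, so that *MAM1* lay near the median of the list. Some non-members with the ortholog in their cell also had a gain above 1.5. These were AALP_AA1G181100 (*CYP79F1*, gain 2.22, log2 fold change 2.17 over the wild type), AALP_AA4G219900 (IPMI SSU2, 2.02), AALP_AA4G100000 (*CYP83A1*, 1.80) and AALP_AA8G142100 (IPMDH1, 1.73). The other non-members of the list stayed below 1.5.

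The libraries held between 12871904 and 23829973 reads in genes, and no pair of replicates was alike within sampling noise. The 10 meristem and boundary markers each had reads in at least 1 library, with sums of 170 to 197 CPM in *pep2-1*, 107 to 175 CPM in *pep1-1* and 127 to 150 CPM in the wild type. Of these, *WUS* and *CLV3* had 0 CPM in every *pep2-1* library and at most 0.232 and 0.222 CPM in any other library. The 6 floral markers summed to at most 4.20 CPM in any library, with *AP1* and *AG* at 0, and the 5 root markers found to at most 2.61 CPM, with *EXPA7* at 0. Markers of xylem and phloem summed to 278 to 316 CPM in *pep2-1*, 154 to 260 CPM in *pep1-1* and 204 to 258 CPM in the wild type. The vascular sums of *pep2-1* were thus above those of the other 6 libraries, but most single markers overlapped. Only *XCP2* was separate, with at least 57.8 CPM in each *pep2-1* library and at most 52.6 CPM in the other 6. In replicates A, *SUC2* had 39.9 CPM in *pep2-1*, 57.0 CPM in *pep1-1* and 59.7 CPM in the wild type. The part of vascular tissue in the values of the members was not tested. The 4 green leaf markers found summed to 889 to 1754 CPM in *pep2-1*, 862 to 1139 CPM in *pep1-1* and 798 to 1308 CPM in the wild type. In whole apices, a change in the number of cells of a type and a change in RNA per cell cannot be told apart.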

How the data were processed

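RNA from dissected apices was sequenced in 9 libraries as 100 bp single-end reads. The authors aligned these to the *A. alpina* reference genome using TopHat with its defaults, and estimated levels with CuffDiff. Tool versions, genome build, annotation release and strand setting count as not given in the sources used here. Raw reads per gene and library were used as deposited, and are taken as estimated counts because 64 genes have fractional values (no member among them), which were rounded. The FPKM values, 1 per genotype, come from the authors' CuffDiff run over its replicates and were used only for levels per length. A further 18 columns of scaled reads and FPKM per library were not used, nor were the authors' fold changes and p-values and q-values, which hold their own comparisons. Ortholog names of members came from the study's gene lists. Starts were converted to 1-based positions.

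Reads were tested with edgeR 4.0.16 under R 4.3.3 (filterByExpr with minimum count 10 and minimum total 15, TMM, quasi-likelihood test, 1 model with 9 libraries, Benjamini-Hochberg adjustment over 21713 genes). The code was also run on simulated counts with the same spread for all genes and no effect of the replicate letter. That run cannot judge the calls of genes in which replicate A stands apart. The standard error is the log2 fold change over the square root of F. DESeq2 1.42.0 and limma-voom (limma 3.58.1), other scalings, filters, a replicate block and leaving out libraries were the alternatives. Values in every library are given for the 8 members with the largest gain, the 6 with the highest mean in *pep2-1*, and the 3 on either side of the threshold. The *CYP83A1*, *MAM1*, *MAM3*, *GSH2*, *PTR2*, DUF295 and lipase copies were named after their values were seen. The members and lists were chosen with earlier results of these data known.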

Additional observations from a re-analysis of the deposited data

How the results depend on the processing

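The rule took 19 genes, 50 with a gain midway between 1 and 1.5, 4 with a gain of 2, 242 with no minimum mean, and 96 without the A libraries. Leaving out 1 library gave 19 to 43, and none of the 19 was lost. The gain of a member cannot fall when a library is left out, and the mean in *pep2-1* did not fall under its minimum. The highest counts came without replicate A of the wild type (43) and without A or B of *pep2-1* (35 each). Of the members, 6 were called over the wild type and 9 over *pep1-1* (0.175% and 0.686% of all tested genes). DESeq2 called 10 and 14 (0.451% and 1.4%), and without the A libraries it was 14 and 15 (1.47% and 2.24%). Leaving out 1 library gave 1 to 10 and 6 to 14. The lowest count over the wild type came without replicate C of the wild type (1), with 2 without its B or *pep2-1* A, and 3 without *pep2-1* B or C. The highest came without *pep1-1* A (10), and over *pep1-1* 14 were called without *pep1-1* A or wild-type A. Between *pep1-1* and the wild type 0 members were called, and 4 without the A libraries, while leaving out 1 library gave 0 to 0. Of the neighbours, 0 were called over the wild type, and 1 by DESeq2, by limma-voom and with only the 6 libraries compared, 4 without the A libraries and 0 to 1 with 1 library left out. Over *pep1-1* 2 were called, and 5 by DESeq2, 4 by limma-voom, 5 without the A libraries and 1 to 5 with 1 library left out, the extremes without *pep1-1* B (1) and *pep1-1* A (5). With the replicate block, 15 members and 3 neighbours were called over the wild type and 17 and 6 over *pep1-1*, where of all tested genes 0.88% and 1.97% were called higher and 1.84% and 3.05% in either direction. Same-letter libraries of different genotypes correlated in their deviations at -0.0047 to 0.54, and libraries of other letters at -0.45 to 0.33. The pairs of replicates A were at 0.273, 0.415 and 0.537, while 3 same-letter pairs were not above 0.1. The main model did not pair the libraries by letter, and whether the letters pair them is not known. The causes of these changes were not tested. Depth limits AALP_AAs40902U000200, which had 1 to 5 reads in each wild-type library.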
